A study of Homo sapiens with 12 samples.

Results

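The mitochondrial ribosomal protein genes were described in VCaP cells under androgen and after knockdown of PIAS1. They were taken by symbol, as every gene whose name begins with MRPL or MRPS followed by a digit. A gene counted as measured when 1 of its probes had a detection p under 0.01 on at least 3 of the 12 arrays, and its brightest such probe stood for it. That held for 79 of the 80 such genes with a probe on the array, out of 10710 genes measured in the same way in the whole series. The gene left out was MRPL23-AS1, an antisense RNA. Of the 79, 76 are protein-coding, of which 50 encode large subunit proteins and 26 encode small subunit proteins. MRPS18A and MRPS30 were counted with the large subunit, where their proteins sit despite the symbol. The other 3 are MRPL42P5, MRPS31P5 and MRPL20-AS1, whose symbols mark pseudogenes and an antisense RNA. The filter on detection hardly shaped the group: the probes of all members except MRPL42P5 were detected on every array.

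The mitochondrial ribosome translates the few messenger RNAs of the mitochondrial genome, which encode core subunits of the respiratory chain and of ATP synthase. Its ribosomal RNAs are transcribed in the organelle, whereas all of its proteins come from nuclear genes, are made in the cytosol and are imported. Some of these proteins have counterparts in bacterial ribosomes and others were acquired during the evolution of mitochondria. PIAS1, the target of the knockdown, is a SUMO E3 ligase known as a coregulator of the androgen receptor.

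VCaP is an established prostate cancer line grown from a vertebral metastasis, and all samples came from this 1 line. The 4 groups were cells with siRNA against PIAS1 and testosterone, cells with control siRNA (siSCR) and testosterone, cells with siRNA against PIAS1 (siPIAS1) alone, and cells with siSCR alone, each on 3 arrays. Common to all groups were 100 h in medium with 2.5% charcoal-stripped serum and 96 h with an siRNA pool. Testosterone was given at 100 nM for 16 h, and for the other cells the labels state no treatment. RNA was hybridised to Illumina bead arrays. The labels number the replicates without saying whether they were separate cultures, so the p-values measure the spread between these samples, which may be technical.

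The arrays detected between 32.5% and 36.0% of the probes, with median scanner signals of 93.7 to 110. PIAS1 itself had normalized log2 signals of 9.12, 8.97 and 9.23 with siPIAS1 against 10.25, 10.37 and 10.33 with siSCR, a difference of -1.21 ± 0.11 (SE). Under testosterone it had 10.52, 10.59 and 10.83 with siPIAS1 against 11.32, 11.43 and 11.47 with siSCR, so the knockdown held in both settings while testosterone raised PIAS1 in both. Of 8 luminal prostate markers on the array all 8 were detected (KLK2, KLK3, KRT8, KRT18, TMPRSS2, HOXB13, FOLH1 and EPCAM), while 0 of 3 basal epithelial and 0 of 3 endothelial markers were. LUM and ACTA2, of 6 fibroblast and smooth muscle markers, and CD14, of 4 blood markers, also passed detection. Replicate 3 of siPIAS1 with testosterone stood apart. Its mean correlation with the other arrays of its group was 0.978, compared with 0.986 or more on all others, and limma gave it an array weight of 0.118. The results that changed most without this array are given with and without it, and some others also shrank when it was left out.

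The promoters of the members with the clearest response to testosterone in control cells are shown here because the text returns to them. They are the 2 protein-coding members that rose and the 2 that fell with the smallest p (RefSeq, GRCh38.p14, 250 bases before to 50 bases after the gene's start, 5′ to 3′ on the gene's strand). Capitals mark a match to 1 of 4 short motifs named for factors known to act on genes for mitochondria or on growth genes. These were NRF1 (GCGCATGCG), ETS/GABP (CCGGAAGT), YY1 (AAGATGGC) and the E-box (CACGTG), each searched on both strands. MRPS23 lies at chr17:57849995-57850294 on the minus strand, MRPL42 at chr12:93467264-93467563 on the plus strand, MRPS31 at chr13:40771141-40771440 on the minus strand and MRPL16 at chr11:59810729-59811028 on the minus strand.
MRPS23: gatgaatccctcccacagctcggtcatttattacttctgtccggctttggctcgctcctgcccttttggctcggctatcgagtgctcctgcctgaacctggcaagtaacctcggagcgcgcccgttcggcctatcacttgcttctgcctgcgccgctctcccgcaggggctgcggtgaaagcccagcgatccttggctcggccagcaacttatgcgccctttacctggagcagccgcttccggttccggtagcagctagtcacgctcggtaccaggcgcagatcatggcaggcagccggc
MRPL42: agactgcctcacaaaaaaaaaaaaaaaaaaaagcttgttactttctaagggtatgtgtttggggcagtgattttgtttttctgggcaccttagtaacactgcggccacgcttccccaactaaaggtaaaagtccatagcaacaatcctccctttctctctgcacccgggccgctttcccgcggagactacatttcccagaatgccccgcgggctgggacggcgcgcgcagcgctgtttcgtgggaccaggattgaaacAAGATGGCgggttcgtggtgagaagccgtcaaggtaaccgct
MRPS31: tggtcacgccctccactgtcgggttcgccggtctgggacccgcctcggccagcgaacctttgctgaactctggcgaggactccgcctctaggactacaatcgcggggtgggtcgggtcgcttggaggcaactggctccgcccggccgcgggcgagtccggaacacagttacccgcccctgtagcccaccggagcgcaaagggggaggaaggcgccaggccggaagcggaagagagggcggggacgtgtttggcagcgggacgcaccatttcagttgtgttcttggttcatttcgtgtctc
MRPL16: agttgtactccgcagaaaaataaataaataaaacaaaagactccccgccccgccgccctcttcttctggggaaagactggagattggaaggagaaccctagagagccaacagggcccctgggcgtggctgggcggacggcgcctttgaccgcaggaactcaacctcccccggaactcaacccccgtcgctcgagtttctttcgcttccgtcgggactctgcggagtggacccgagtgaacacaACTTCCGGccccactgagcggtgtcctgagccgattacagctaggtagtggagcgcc
The promoter of MRPL42 held the YY1 motif, beginning at base 9 counted from 1 at the gene's start. That of MRPL16 held the ETS/GABP motif on the opposite strand, beginning 7 bases before the start. No exact match to any of the 4 motifs was in the windows of MRPS23 and MRPS31, and near matches were not searched. Both windows do hold a stretch that differs from the ETS/GABP motif, or from its reverse complement, only in an end letter.

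Among the 68 protein-coding members with a promoter in the table, the YY1 motif was the most frequent of the 4. It was found in 21 member promoters (30.9%), against 6.81% of the 8530 promoters of measured coding genes and 3.52% of all 27305 promoters of the same length. The ETS/GABP motif was in 16.2% of the member promoters, against 10.4% of those of measured coding genes and 4.95% of all. For NRF1 the shares were 4.41%, 4.45% and 2.34% in the same order, and for the E-box they were 13.2%, 12.9% and 8.77%. At least 1 of the 4 was in 48.5% of the member promoters, 29.9% of those of measured coding genes and 17.5% of all. These are matches of letters and not binding sites. The YY1 letters were in 1 of 5 promoters of coding members that rose with testosterone in siSCR cells, in 2 of 10 that fell and in 18 of 53 that did not pass.

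Across the 76 coding members, signals were spread around each gene's own mean over the 12 arrays, and the middle of that spread differed between groups. The median deviation was -0.10, -0.08 and -0.12 on the arrays of siPIAS1 with testosterone, against 0.03, 0.02 and 0.05 on those of siSCR with testosterone. Without testosterone it was -0.10, -0.01 and -0.15 with siPIAS1, against 0.17, 0.12 and 0.12 with siSCR. In both settings every siPIAS1 array lay below every siSCR array, and the 3 siSCR arrays without hormone were the highest of the 12. Over all genes the median deviation lay between -0.05 and 0.02 on every array. Replicate 3 of siPIAS1 with testosterone had a median like that of its group but a wider spread, with quartiles of -0.52 and 0.25. In bulk RNA, a lower share of a transcript from fewer expressing cells and from less RNA per cell cannot be told apart.

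**Figure D1:**
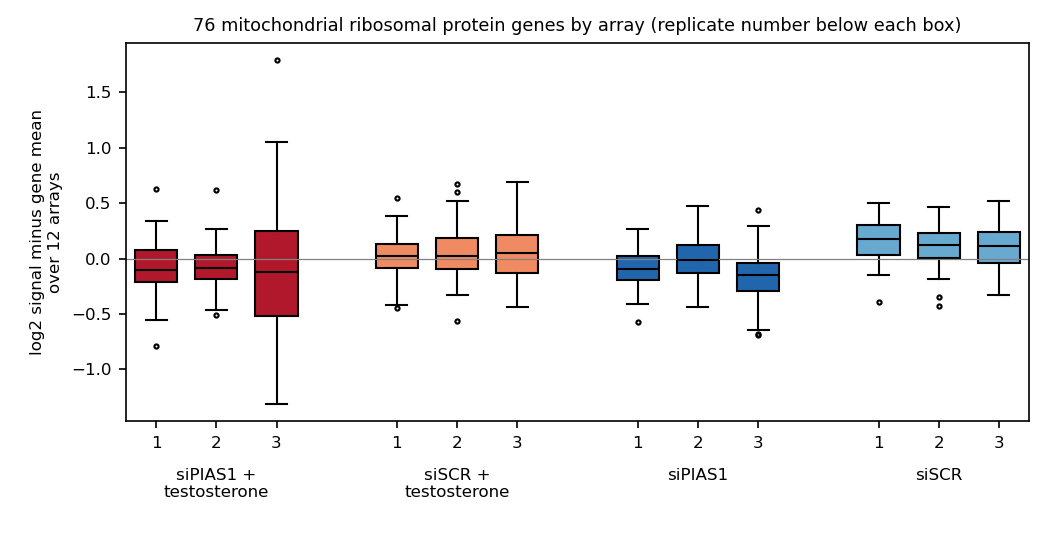
Deviation of the 76 protein-coding mitochondrial ribosomal protein genes from each gene's mean over 12 arrays (log2), 1 box per array: line, median; box, quartiles; whiskers, values within 1.5 box lengths; circles, genes beyond. The siSCR arrays without testosterone have medians of 0.12 to 0.17, the siPIAS1 arrays medians of -0.15 to -0.01, and replicate 3 of siPIAS1 with testosterone has the widest box.

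Testosterone in siSCR cells raised 7 of the 79 members and lowered 14, while 58 did not pass (limma, Benjamini-Hochberg adjusted p under 0.05). Over all genes tested 20% rose and 24.3% fell. In either direction 26.6% of the members passed, against 44.3% of all genes. The median difference was -0.07 over the members and -0.02 over all genes. The balance of rises and falls depended on scaling. With each array scaled to its 75th percentile in place of quantile normalization, 11 members rose and 5 fell, and their median was 0.03. Under that scaling 22.3% of all genes rose, 21.6% fell and the median was 0.03. Without the array that stood apart, which enters this comparison through the shared estimate of the spread, 9 rose and 23 fell. Here and below, counts past the adjusted threshold with an array left out are given without the share of all genes. They therefore do not show whether members shifted more than other genes.

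MRPS23, a small subunit protein with no bacterial counterpart, had the largest rise of the coding members. Its signals were 9.73, 10.02 and 10.04 with testosterone, against 9.40, 8.92 and 9.05 without, in siSCR cells, and the groups did not overlap. The difference was 0.81 ± 0.15 (SE), a 1.75-fold change with an adjusted p of 0.000577. MRPL42, whose protein is part of the large subunit, had 9.49, 9.89 and 9.89 with testosterone against 9.21, 9.23 and 9.12 without. Every testosterone array was above every untreated array, with a difference of 0.57 ± 0.12 (SE, adjusted p = 0.0013), and its second detected probe moved by 0.59. MRPL41, another large subunit protein without a bacterial counterpart, had 12.34, 11.95 and 11.93 with testosterone and 11.39, 11.44 and 11.68 without, a difference of 0.57 ± 0.13 (SE, adjusted p = 0.00232). MRPL33 and MRPL17, both with counterparts in bacterial ribosomes, rose by 0.40 and 0.32. The MRPL33 groups overlapped, and its call ended without siSCR replicate 1, siSCR replicate 3, or siSCR with testosterone replicates 2 or 3 (adjusted p from 0.0513 to 0.162). That of MRPL17 ended without siSCR replicates 2 or 3, or siSCR with testosterone replicates 1 or 2 (adjusted p from 0.0619 to 0.0716).

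The members that fell in siSCR cells were 11 proteins of the large subunit and 3 of the small, where 50 of the 76 coding members belong to the large. MRPL11, a protein of the stalk base where translation factors bind in bacterial ribosomes, had 11.22, 11.28 and 11.17 with testosterone against 11.92, 11.79 and 11.79 without. The groups were far apart, with a difference of -0.61 ± 0.14 (SE, adjusted p = 0.00295), and its 2 further probes moved by -0.46 and -0.38. MRPS31, a small subunit protein, had 8.81, 9.02 and 9.003 with testosterone against 9.55, 9.57 and 9.40 without, a difference of -0.56 ± 0.11 (SE, adjusted p = 0.000806). MRPL16, which in bacteria helps to shape the tRNA binding sites of the large subunit, had 9.73, 9.88 and 9.78 with testosterone against 10.39, 10.35 and 10.29 without. No testosterone array reached the untreated range, and the difference was -0.55 ± 0.12 (SE, adjusted p = 0.00162). MRPL57, MRPL35, MRPL37, MRPL12, MRPL45 and MRPL58, the last a peptidyl-tRNA hydrolase that became part of the ribosome, fell by 0.59, 0.52, 0.43, 0.42, 0.41 and 0.37. MRPL23, which lies at the exit tunnel in bacteria, had overlapping groups and fell by 0.45 (adjusted p = 0.0461), a call that ended without any 1 of 7 arrays (adjusted p from 0.0507 to 0.2). Under 75th percentile scaling MRPL23, MRPL37, MRPL12, MRPL45 and MRPL58 missed the threshold with the same sign. MRPL12 also missed it without siSCR replicate 3 (-0.31, adjusted p = 0.0868) and without siSCR with testosterone replicate 3 (-0.34, adjusted p = 0.0784), and MRPL35 without siSCR with testosterone replicate 1 (-0.40, adjusted p = 0.0656).

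**Figure D2:**
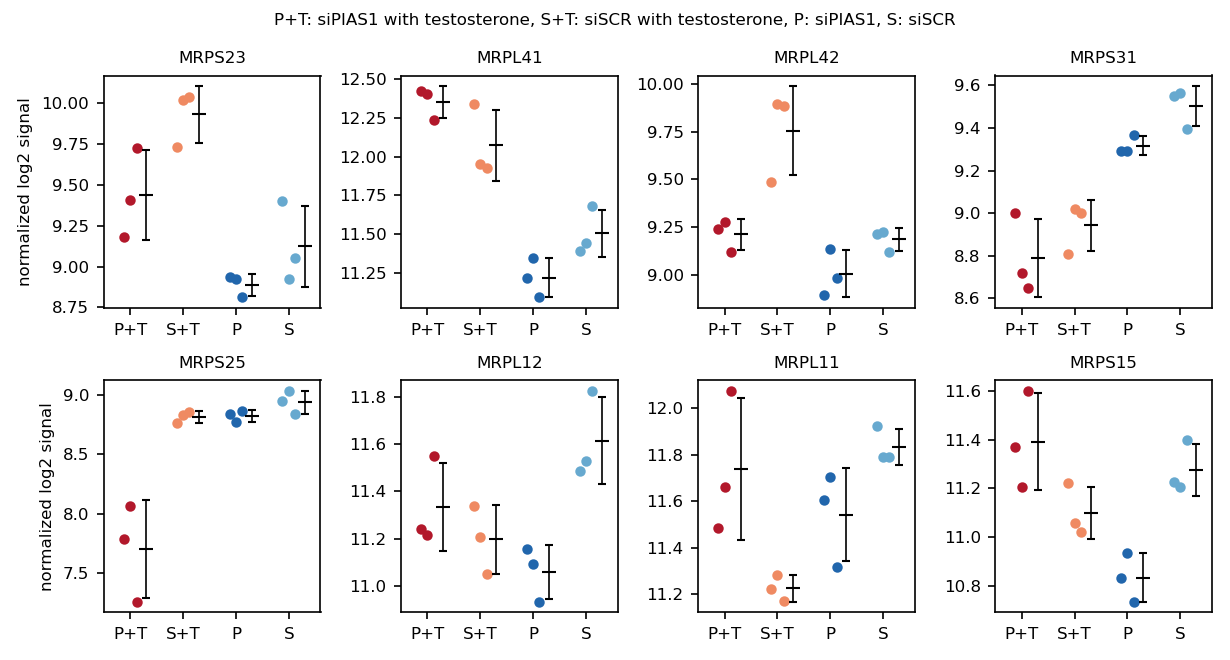
Normalized log2 signal of 8 members on each array (points), with the mean and SD of the 3 arrays beside them. MRPS23, MRPL41 and MRPL42 are higher and MRPS31 is lower with testosterone in siSCR cells, and MRPS25 is low on the 3 arrays of siPIAS1 with testosterone, at 7.26 to 8.06, against 8.76 to 9.03 on the other 9.

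In siPIAS1 cells testosterone raised 17 of the 79 members and lowered 17, where 25.4% of all genes rose and 29.7% fell. The median difference was 0.03 over the members and -0.03 over all genes. Here too the balance moved with scaling, to 25 higher and 7 lower with a median of 0.16 under 75th percentile scaling. There 28.3% of all genes rose, 24.6% fell and their median was 0.03. Leaving out the array that stood apart gave 16 higher and 15 lower. Without siPIAS1 replicate 3 it was 11 higher and 16 lower, and without siPIAS1 replicate 2 it was 17 higher and 9 lower. The numbers of members called in siPIAS1 and in siSCR cells were not compared by a test. MRPL41 rose most and passed in both siRNA settings. Its signals were 12.42, 12.40 and 12.24 with testosterone, against 11.22, 11.35 and 11.09 without, in siPIAS1 cells, and the difference of 1.13 ± 0.13 (SE, adjusted p = 5e-06) was larger than the spread within either group. MRPS18A had 9.27, 9.25 and 9.95 with testosterone against 8.67, 8.84 and 8.36 without, a difference of 0.87 ± 0.17 (SE, adjusted p = 0.000671) that was 0.64 without the array that stood apart. MRPS15, a small subunit protein with a bacterial counterpart, had 11.37, 11.20 and 11.60 with testosterone and 10.83, 10.93 and 10.74 without, with no overlap and a difference of 0.56 ± 0.12 (SE, adjusted p = 0.00102).

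Several rises in siPIAS1 cells leaned on replicate 3 with testosterone. MRPL28 had 7.55, 7.62 and 9.18 with testosterone against 7.20, 7.51 and 6.87 without, so that 1 array carried most of its difference of 0.92 ± 0.32 (SE, adjusted p = 0.0246), which was 0.39 without it. Its adjusted p was 0.0549 without siPIAS1 replicate 1 and 0.0995 without siPIAS1 replicate 3. MRPL9, with a bacterial counterpart, changed by 0.71 with that array and 0.41 without it, and MRPL49 by 0.54 and 0.34. MRPS26 changed by 0.48 with it and 0.26 without it (adjusted p = 0.0508), and its adjusted p was 0.0609 without siPIAS1 replicate 3. MRPL44, a protein related to ribonuclease III, rose by 0.57 and MRPS23 by 0.55, and both passed without each array in turn. Without replicate 3 with testosterone both rose by 0.41. MRPL23 rose by 0.43 (adjusted p = 0.0472) and missed the threshold without each of 6 arrays, among them siPIAS1 replicate 3 (0.32, adjusted p = 0.178).

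MRPS25 fell most in siPIAS1 cells. This small subunit protein, which has no bacterial counterpart, had 7.79, 8.06 and 7.26 with testosterone against 8.83, 8.77 and 8.86 without. The groups did not overlap, and the difference was -1.12 ± 0.15 (SE, 2.17-fold, adjusted p = 3.5e-05). Leaving out replicate 3 made it -0.90. MRPL35, a small basic protein known from bacteria, had 8.92, 8.88 and 8.31 with testosterone against 9.50, 9.74 and 9.71 without, a difference of -0.94 ± 0.16 (SE, adjusted p = 0.000162). Leaving out replicate 3 made this difference -0.75. The 2 further detected probes of MRPL35 moved by -0.92 and -0.84 with all arrays. MRPS21 had 11.28, 11.19 and 10.78 with testosterone against 11.79, 11.90 and 11.60 without and fell by 0.68, and MRPL39 fell by 0.67, or by 0.46 without replicate 3. MRPL13, MRPL24, MRPS31 and MRPS6 fell by 0.56, 0.54, 0.53 and 0.52, and each of them passed without each array in turn. MRPL40 had overlapping groups and fell by 0.56, but by 0.28 when replicate 3 was left out (adjusted p = 0.097), and MRPL15 fell by 0.55, or by 0.30 without it (adjusted p = 0.0453). The calls of MRPL15 and MRPL40 also ended without siPIAS1 replicates 1 or 2, with adjusted p from 0.0556 to 0.0924. MRPL40, MRPL13 and MRPL15 missed the threshold under 75th percentile scaling.

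Both responses to testosterone were measured on separate arrays. Of the 7 members that rose in siSCR cells, 5 also rose in siPIAS1 cells (71.4% of the first list and 29.4% of the second): MRPL17, MRPL41, MRPS23, MRPL42P5 and MRPS31P5. MRPL42P5 and MRPS31P5 are pseudogenes with uncertain values, as described further on. Among protein-coding members, 5 rose in siSCR cells and 14 in siPIAS1 cells, and those shared were MRPL17, MRPL41 and MRPS23. Of the 14 that fell in siSCR cells, 7 also fell in siPIAS1 cells (50% and 41.2%), namely MRPL16, MRPL24, MRPL35, MRPL45, MRPS27, MRPS28 and MRPS31. Over all genes the shared calls were 72.7% of those that rose in siSCR cells and 57.4% of those that rose in siPIAS1 cells, and for falls 76.8% and 62.8%. MRPL23 passed in opposite directions. Over the 76 coding members both responses correlated with r = 0.412 and had the same sign in 48, where r was 0.824 over all 10710 genes. The correlations run across genes, which share arrays and normalization, and describe these data without a test.

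**Figure D3:**
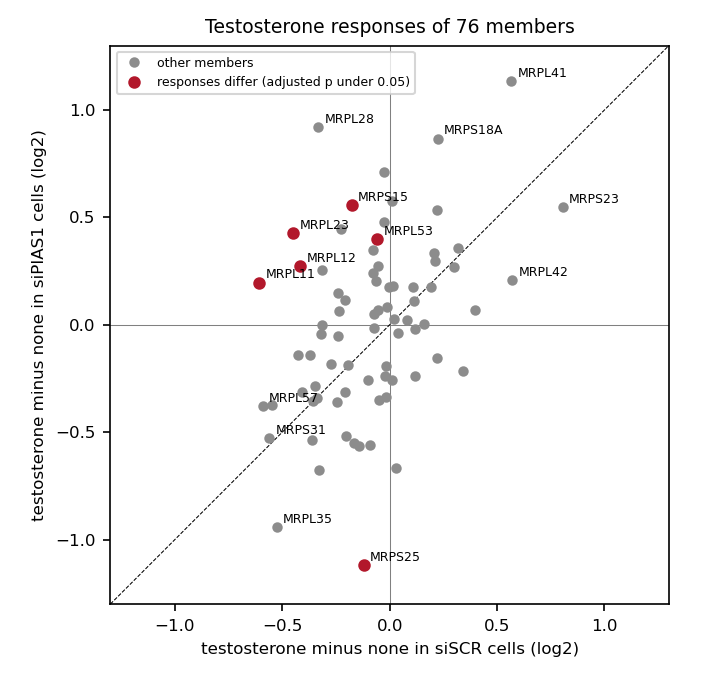
Testosterone response of each of the 76 coding members in siPIAS1 cells (vertical axis) against that in siSCR cells (horizontal axis), both as log2 difference; the dashed line marks equal responses. Of the 6 members in red, whose responses differed, 5 lie above the line and MRPS25 lies below it.

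The difference between both responses was tested directly, as the response in siPIAS1 cells minus that in siSCR cells. It was higher than 0 for 5 members and lower for 1, against 4.88% and 5.06% of all genes, with a median of 0.07 over the members and -0.01 over all genes. MRPS25 barely moved with testosterone in siSCR cells, at 8.76, 8.83 and 8.86 with hormone against 8.94, 9.03 and 8.84 without, so its responses differed by -1.0 ± 0.22 (SE, adjusted p = 0.0112). MRPS15 had 11.22, 11.06 and 11.02 with testosterone and 11.23, 11.20 and 11.40 without in siSCR cells, a change of -0.18 that did not pass, and its responses differed by 0.73 ± 0.16 (SE, adjusted p = 0.0118). These 2 differences passed without each array in turn. MRPL11, which fell in siSCR cells, had 11.48, 11.66 and 12.07 with testosterone against 11.60, 11.71 and 11.32 without in siPIAS1 cells, where the groups overlapped. Its responses differed by 0.80 ± 0.20 (SE, adjusted p = 0.0213), though not past the threshold without siPIAS1 replicate 3 (0.69, adjusted p = 0.0641), siSCR replicate 1 or siSCR with testosterone replicate 3. Its further probes gave differences between responses of 0.35, which did not pass (adjusted p over probes 0.218), and 1.09 (adjusted p over probes 0.0068). In siPIAS1 cells they moved with testosterone by -0.11 and 0.71, beside 0.20 for the brightest probe. For MRPL23, MRPL12 and MRPL53 the differences were 0.88, 0.69 and 0.46, with adjusted p of 0.0355, 0.0275 and 0.035. Without siPIAS1 replicate 3 these 3 had adjusted p of 0.0987, 0.0783 and 0.0748, and without other single arrays the calls of MRPL23, MRPL12 and MRPL53 also ended, for 7, 5 and 8 arrays in all. MRPL28 had a larger difference of 1.25 ± 0.45 (SE), which did not pass (adjusted p = 0.0925).

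Without testosterone nearly all members were lower after PIAS1 knockdown, by small amounts, and few passed singly. Of the 79, 5 fell and 0 rose, where 5.77% of all genes fell and 7.56% rose. At an unadjusted p under 0.05 in limma, 19 were lower and 0 higher, where 13% of all genes were lower and 14.2% higher at that threshold, and without siPIAS1 replicate 3 it was 7 lower. In the main fit the share that fell, 6.33%, was close to that of all genes. The count of 5 moved to 14 under 75th percentile scaling and to 18 without replicate 3 of siPIAS1 with testosterone. It was 0 without siPIAS1 replicate 3. Shares of all genes past the adjusted threshold are not given for those settings, so the closeness holds for the main fit only. The signs were uneven: 72 of the 76 coding members were below 0, and 92.4% of the 79 were, against 50.8% of all genes. The uneven signs were not particular to the members, as related lists described further on had them too. Below 0 were 90% of the assembly and rRNA modification factors, 92.3% of the translation factors and 94.4% of the genes for charging mitochondrial tRNAs. It was 100% of the genes for mitochondrial DNA transcription and upkeep, of the regulators and of the mitoribosome proteins with other names. The median difference was -0.21 over the members and 0.00 over all genes to 2 decimals. The number below 0 lay between 67 and 74 when each array was left out in turn and was 75 under 75th percentile scaling. Members share arrays and are not independent of each other, so the share is a description.

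MRPL12, the stalk protein that in bacteria recruits translation factors and in mitochondria also binds the mitochondrial RNA polymerase, had 11.16, 11.09 and 10.93 with siPIAS1 against 11.49, 11.53 and 11.83 with siSCR. The groups did not overlap, and the difference was -0.55 ± 0.13 (SE, adjusted p = 0.0116). MRPS15 had 10.83, 10.93 and 10.74 with siPIAS1 against 11.23, 11.20 and 11.40 with siSCR, a difference of -0.44 ± 0.12 (SE, adjusted p = 0.0218). MRPS2 had 9.72, 9.73 and 9.58 against 10.18, 10.04 and 10.08, again without overlap, and fell by 0.43. MRPS30, a large subunit protein in spite of its name, fell by 0.40, and MRPS17, with a bacterial counterpart, by 0.37. All 5 missed the threshold without siPIAS1 replicate 3, with adjusted p of 0.0567, 0.0907, 0.0885, 0.103 and 0.104 in the order named and differences of -0.49, -0.39, -0.38, -0.40 and -0.31. Without that array 0 members passed in limma and 7 were lower at an unadjusted p under 0.05, where 10.7% of all genes were lower. The count was 1 without siSCR replicate 1, siSCR replicate 3 or siPIAS1 replicate 1, 2 without siSCR replicate 2, and 18 without replicate 3 of siPIAS1 with testosterone.

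Under testosterone the knockdown lowered 22 members and raised 6, where 17.2% of all genes fell and 16.3% rose. The median difference was -0.15 over the members and 0.00 over all genes to 2 decimals, and 64.6% of the members were below 0. Without replicate 3 of siPIAS1 with testosterone, 16 members fell and 6 rose. Without siSCR with testosterone replicate 2 the counts were 8 lower and 2 higher, and without replicate 3 of that group 10 lower and 2 higher. This comparison shares arrays with both testosterone comparisons, so its values stand beside theirs and are not a second observation of them.

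MRPS25 had 7.79, 8.06 and 7.26 with siPIAS1 and testosterone against 8.76, 8.83 and 8.86 with siSCR and testosterone, a difference of -1.11 ± 0.15 (SE, adjusted p = 0.000137). The SD was 0.41 in the first group and 0.05 in the second. Without the array that stood apart the difference was -0.89. MRPL39, a large subunit protein, had 10.14, 10.35 and 9.60 against 10.79, 11.19 and 11.14 in the same groups, without overlap, and differed by -1.01 ± 0.17 (SE, adjusted p = 0.000484). Leaving out the array that stood apart made the difference -0.80. The second detected probe of MRPL39 moved by -0.61 with all arrays. MRPL21 had 11.79, 11.98 and 11.53 with siPIAS1 against 12.38, 12.27 and 12.44 with siSCR, a difference of -0.59 ± 0.12 (SE, adjusted p = 0.00214). MRPL42, which testosterone raised in siSCR cells, had 9.24, 9.28 and 9.12 with siPIAS1 against 9.49, 9.89 and 9.89 with siSCR and fell by 0.54. Its second detected probe moved by -0.34, which did not pass (adjusted p over probes 0.0767). MRPS6 fell by 0.54 and MRPL1 by 0.52, and these 6 members passed without each array in turn.

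MRPL53, a large subunit protein without a bacterial counterpart, was among the 6 members raised by the knockdown under testosterone. It had 10.62, 10.55 and 10.60 with siPIAS1 against 10.24, 10.06 and 10.13 with siSCR, a difference of 0.45 ± 0.09 (SE, adjusted p = 0.00196) that also passed without each array in turn. MRPL11 had 11.48, 11.66 and 12.07 with siPIAS1 against 11.22, 11.28 and 11.17 with siSCR and rose by 0.51, though without siSCR with testosterone replicate 3 its adjusted p was 0.052. Without the array that stood apart MRPL11 rose by 0.35. Its further probes moved by 0.17, which did not pass (adjusted p over probes 0.296), and by 0.855. MRPL28 rose by 1.15, or by 0.62 when the array that stood apart was left out (adjusted p = 0.00656), and its adjusted p was 0.0516 without siSCR with testosterone replicate 2. MRPL9 rose by 0.57, but by 0.27 when that array was left out (adjusted p = 0.0552), and MRPS10 rose by 0.31 (adjusted p = 0.0417) and missed the threshold without each of 10 arrays. Falls of 4 others were of the same kind. Without the array that stood apart, MRPS18C differed by -0.36 in place of -0.66, MRPL15 by -0.37 in place of -0.61, MRPL40 by -0.26 in place of -0.54 and MRPL47 by -0.41 in place of -0.53, the last 2 no longer passing (adjusted p of 0.161 and 0.0575). The groups of MRPL40 and MRPL47 overlapped. The calls of MRPS18C, MRPL47, MRPL9 and MRPL40 also ended without siSCR with testosterone replicates 2 or 3 (adjusted p from 0.0542 to 0.158), that of MRPL40 without 9 of the 12 arrays in all, and that of MRPL15 without replicate 1 of that group (adjusted p = 0.053).

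**Figure D4:**
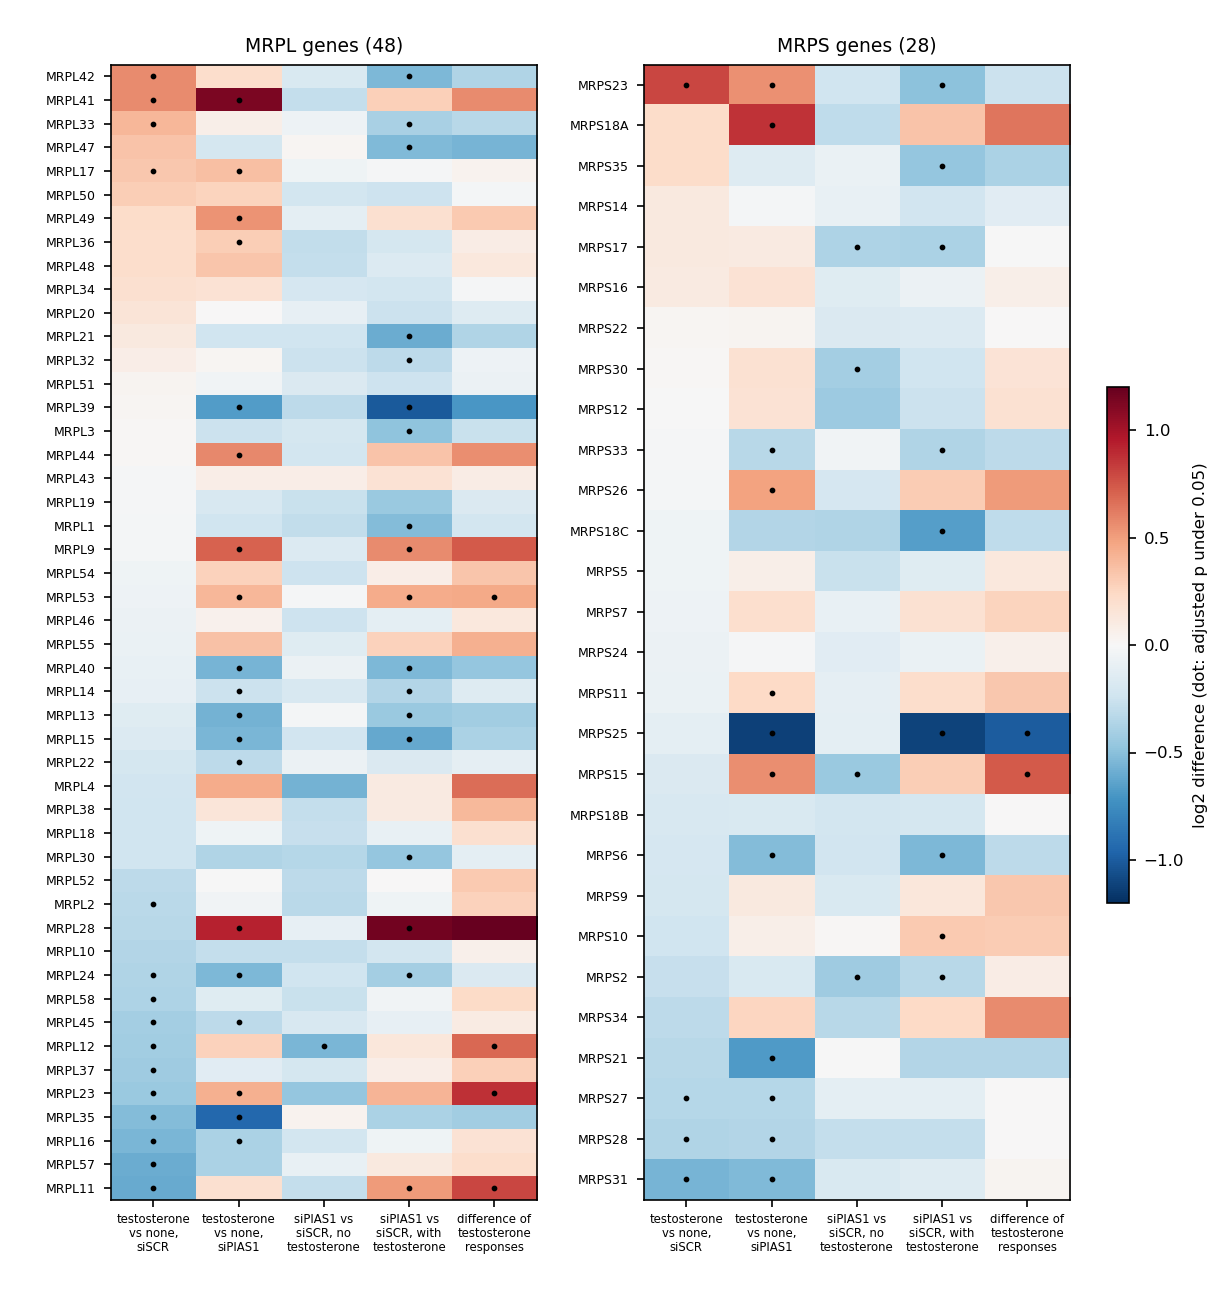
Log2 difference of the 76 coding members in the 5 comparisons (columns), MRPL genes on the left and MRPS genes on the right, each sorted by the testosterone response in siSCR cells; dots mark an adjusted p under 0.05. In the column of siPIAS1 without testosterone 72 of 76 members are below 0 while 5 carry a dot; under 75th percentile scaling the number below 0 was 75.

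The 3 MRPS18 genes encode relatives of 1 bacterial protein that differ in where they sit, MRPS18A in the large subunit and MRPS18B and MRPS18C in the small. Their values are given side by side. MRPS18A rose with testosterone in siPIAS1 cells (0.87) and changed by 0.22 in siSCR cells, which did not pass (adjusted p = 0.31). MRPS18C had 10.05, 10.09 and 9.15 with siPIAS1 and testosterone against 10.29, 10.38 and 10.61 with siSCR and testosterone, and fell by 0.66 (adjusted p = 0.0227), or by 0.36 without the array that stood apart. MRPS18B passed in none of the comparisons, with differences from -0.22 to 0.01, and its arrays with siPIAS1 and testosterone ranged widely, at 10.77, 10.32 and 9.67. The difference between these 3 genes was not tested.

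By role, the calls were spread over the ribosome, and each class is small. Beside these counts, 20% of all genes rose and 24.3% fell with testosterone in siSCR cells. In siPIAS1 cells 25.4% of all genes rose and 29.7% fell. Large subunit proteins with a bacterial counterpart (27 measured) had 2 members higher and 7 lower with testosterone in siSCR cells, and 5 higher and 7 lower in siPIAS1 cells. Large subunit proteins without one (23 measured) had 2 higher and 4 lower in siSCR cells, and 5 higher and 3 lower in siPIAS1 cells. This second list, as it was written, holds MRPL47, whose protein does have a bacterial counterpart, and MRPS18A, which is related to one. Small subunit proteins with a counterpart (16 measured) had 0 higher and 1 lower in siSCR cells and 2 higher and 3 lower in siPIAS1 cells, and those without one (10 measured) had 1 higher and 2 lower, and 2 higher and 4 lower. This last list, as it was written, holds MRPS18B, which like MRPS18A is related to a bacterial protein. For siPIAS1 without testosterone the medians of the 4 classes, in the order named, were -0.24, -0.22, -0.21 and -0.18, with 26 of 27, 21 of 23, 15 of 16 and 10 of 10 members below 0.

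MRPL42P5 and MRPS31P5 rose with testosterone in both siRNA settings, but their transcripts are close copies of MRPL42 and MRPS31, so probes may read either gene and the values are uncertain. MRPL42P5 differed by 0.94 in siSCR cells and by 0.68 in siPIAS1 cells, from low signals that were detected on 1 of 3 arrays of siSCR without testosterone. MRPS31P5 differed by 0.66 and 0.93 in the same comparisons, opposite in sign to MRPS31. MRPL20-AS1 rose by 0.33 in siPIAS1 cells (adjusted p = 0.0134). Of the 79 members, 25 passed in none of the 4 comparisons between 2 groups (31.6%, against 27.6% of all genes), 23 in 1 (29.1% against 20.6%), 28 in 2 (35.4% against 34.2%) and 3 in 3 (3.8% against 13.3%). The last 3 were MRPL24, MRPS23 and MRPS31P5, and 0 passed in all 4, where 4.32% of all genes did. A further detected probe was available for 23 of the members. For called members these agreed in sign with the brightest probe in 10 of 10 cases for testosterone in siSCR cells, 10 of 10 in siPIAS1 cells, 10 of 10 for the knockdown under testosterone and 2 of 2 for the difference between responses. Some further probes missed the threshold, as for MRPL22 and MRPL39 in siPIAS1 cells (-0.07 and -0.19, adjusted p over probes 0.777 and 0.243). For MRPS12, which was not called, the brightest probe moved with testosterone by -0.0025 in siSCR cells and 0.18 in siPIAS1 cells. Its further probes moved by 0.13 and 0.54 in siSCR cells and by 0.82 and 0.73 in siPIAS1 cells, and only 0.13 did not pass.

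Other genes of mitochondrial gene expression were followed by lists, whose counts stand beside 24.3% of all genes falling and 20% rising with testosterone in siSCR cells, and 29.7% falling and 25.4% rising in siPIAS1 cells. Of 4 measured mitoribosome proteins with other names, DAP3 fell with testosterone by 0.25 in siSCR cells and by 0.27 in siPIAS1 cells. GADD45GIP1, a large subunit protein, rose by 1.07 in siPIAS1 cells, at 7.14, 6.92 and 7.71 with testosterone against 6.14, 6.20 and 6.21 without, where 2 of 3 arrays detected it, and its responses differed by 1.31 ± 0.26 (SE, adjusted p = 0.00646). Of 20 assembly and rRNA modification factors, 0 rose and 5 fell in siSCR cells and 2 rose and 7 fell in siPIAS1 cells. TFB1M, which methylates the small ribosomal RNA, had 7.50, 7.73 and 7.37 with testosterone against 8.40, 8.47 and 8.30 without in siPIAS1 cells and fell by 0.86 (adjusted p = 1.16e-05). FASTKD2, a factor of large subunit assembly, rose by 0.70 there. Of 13 translation factors, 1 rose and 3 fell in siSCR cells and 2 rose and 3 fell in siPIAS1 cells. MTRFR, a release factor relative for stalled ribosomes, rose by 1.46 in siPIAS1 cells, and LRPPRC, which stabilises mitochondrial messenger RNA, fell by 0.46 in siSCR cells and 0.58 in siPIAS1 cells.

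Of 18 measured genes for charging mitochondrial tRNAs, 2 rose and 7 fell with testosterone in siSCR cells, and 5 rose and 3 fell in siPIAS1 cells. VARS2, the valyl-tRNA synthetase of mitochondria, fell by 0.90 in siSCR cells and by 0.73 in siPIAS1 cells. Among 10 genes for transcription and upkeep of mitochondrial DNA, 0 rose in any comparison, while 3 fell with testosterone in siSCR cells, 4 in siPIAS1 cells, 3 with siPIAS1 alone and 7 with siPIAS1 under testosterone. Of all genes, 24.3%, 29.7%, 5.77% and 17.2% fell in these comparisons in the same order. TWNK, the mitochondrial DNA helicase, had 8.36, 8.04 and 8.24 with siPIAS1 and testosterone against 9.58, 9.40 and 9.55 with siSCR and testosterone, a difference of -1.30 ± 0.11 (SE, adjusted p = 1.15e-06). TFAM, which packages mitochondrial DNA and starts its transcription, fell by 0.37 with testosterone in siSCR cells, by 0.43 in siPIAS1 cells and by 0.35 with siPIAS1 alone. The genes encoded in mitochondrial DNA were not analysed here.

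Of 7 measured regulators of nuclear genes for mitochondria, 3 rose and 1 fell with testosterone, in siSCR and in siPIAS1 cells alike. Of all genes, 20% rose and 24.3% fell in siSCR cells, and 25.4% and 29.7% in siPIAS1 cells. With siPIAS1 alone 0 rose and 3 fell, and with siPIAS1 under testosterone 0 rose and 5 fell. Of all genes, 5.77% and 17.2% fell in these comparisons. NRF1 was not measured. MYC moved most with testosterone. It had 10.09, 9.96 and 9.59 with testosterone against 12.83, 12.76 and 12.65 without in siPIAS1 cells, and 12.03, 11.95 and 11.82 against 13.19, 13.28 and 13.28 in siSCR cells. MYC fell by 2.87 in siPIAS1 cells and fell by 1.32 in siSCR cells, and both changes differed by -1.55 ± 0.17 (SE, adjusted p = 8.39e-05). GABPB1, a subunit of the GABP factor, rose with testosterone by 0.54 in siPIAS1 cells and by 0.75 in siSCR cells. ESRRA, a nuclear receptor known for activating genes of oxidative metabolism, rose by 0.53 and 0.61 in the same order. PPARGC1B, a coactivator, rose by 0.59 and 0.41 with testosterone and fell by 0.63 with siPIAS1 alone. Whether any of these bears on the mitochondrial ribosomal protein genes was not tested.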

How the data were processed

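Illumina bead arrays measured RNA from 12 VCaP samples in 4 groups of 3. The deposited scanner intensity of each probe is not normalized, per the file headers, and each has a detection p-value beside it, per the file headers. A further table of normalized log2 values was deposited by the authors; lumi is named in the submitters' processing notes, with no version. That table ranked the probes as each array's own signals did (rank correlation 1), with log2-like slopes of 0.958 to 1.02, so its direction is known, its genes are not centred and its exact transform is unknown. Its array medians were 7.60 to 7.61, and it served as an alternative.

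Background correction and quantile normalization of the intensities used neqc (limma 3.58.1, R 4.3.3, offset 16). Gene names come from the platform annotation, brought up to date with RefSeq: 30113 probes had 1 gene, 8 several and 17202 none. Probes with a detection p under 0.01 on at least 3 arrays were kept, and the brightest per gene was used. A model of the 4 group means was fitted in limma to 10710 genes on 12 arrays (8 residual and 5.77 prior degrees of freedom). Tests were two-sided, with Benjamini-Hochberg adjustment over all genes and a threshold of 0.05. Differences are log2 units with the standard error after ±. With 3 arrays a group, exact permutation reaches p = 0.1 at best and was not used. The code was tested on simulated data. Precision is limited by the number of arrays.

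The members and lists were chosen with earlier results of these data known. Named were, per comparison, up to 10 coding members past the threshold in each direction, by size of difference, the MRPS18 genes, members not detected on every array, and up to 4 members of each other list with the smallest p. Alternatives were 75th percentile scaling, no background correction, an offset of 50, the authors' values, other detection filters, the mean of a gene's probes, array weights, a replicate block and leaving out each array. Same-numbered samples did not deviate together: in 18 pairs the correlation ran from -0.26 to 0.195. A planned comparison of the MRPS18 protein sequences was not run.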

Additional observations from a re-analysis of the deposited data

Results flagged for a closer look

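Both testosterone responses differed by limma's test of the difference itself (siPIAS1 cells minus siSCR cells) for 6 of the 79 members (7.59%), where 1065 of the 10710 genes tested (9.94%) passed, so the members' share was no higher than that of all genes. MRPL23 differed by 0.88 (adjusted p = 0.0355), with responses of 0.43 in siPIAS1 cells and -0.45 in siSCR cells, both close to the threshold. MRPL11 differed by 0.80 (adjusted p = 0.0213), with responses of 0.20 in siPIAS1 cells, which did not pass, and -0.61 in siSCR cells. MRPS15 differed by 0.73 (adjusted p = 0.0118), with responses of 0.56 and -0.18 in the same order. MRPL12 differed by 0.69 (adjusted p = 0.0275), with 0.27 and -0.42, and MRPL53 by 0.46 (adjusted p = 0.035), with 0.40 and -0.06. MRPS25 differed by -1.0 (adjusted p = 0.0112), with -1.12 and -0.12. Without the array that stood apart, replicate 3 of siPIAS1 with testosterone, these differences were 0.79, 0.64, 0.63, 0.59, 0.45 and -0.78, in the order named, and all 6 passed. Without siPIAS1 replicate 3, or without siSCR with testosterone replicate 3, 2 of the 6 passed, MRPS15 and MRPS25, and these 2 passed without each array in turn. MRPL23, MRPL11, MRPL12 and MRPL53 each missed the threshold without at least 3 arrays taken singly.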

How the results depend on the processing

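Of the 61 calls of named members, 0 changed sign under the 21 alternatives. In 136 of 1281 values they missed the threshold with the same sign, 109 of them when 1 array was left out and 27 under other alternatives. Under 75th percentile scaling testosterone in siSCR cells raised 11 members and lowered 5, testosterone in siPIAS1 cells lowered 7 with a median of 0.16, and siPIAS1 alone lowered 14. Array weights, which reduce the array that stood apart, gave 13 higher and 26 lower for testosterone in siSCR cells, 1 higher and 31 lower for siPIAS1 alone, 11 higher for siPIAS1 with testosterone, and 16 higher and 4 lower for the difference between responses. The authors' values gave 8 lower for siPIAS1 alone. Without background correction, and with the mean of detected probes, the difference between responses was lower for 2. With 1 array left out, the members lowered ranged from 10 to 23 for testosterone in siSCR cells, from 9 to 21 in siPIAS1 cells (11 to 18 raised), from 0 to 18 for siPIAS1 alone and from 8 to 23 for siPIAS1 with testosterone (2 to 9 raised). The difference between responses was higher for 1 to 8 and lower for 1 to 4. The cause of these shifts was not tested. Shares of all genes passing under these settings are given above only for testosterone with 75th percentile scaling. The counts therefore do not show whether members shifted more than other genes. Medians kept their sign except that of testosterone in siSCR cells under 75th percentile scaling (0.03) and that in siPIAS1 cells when siPIAS1 replicate 3 was left out (-0.01). The labels do not say whether the replicate numbers pair the samples. With the replicate block, 7 rose and 12 fell with testosterone in siSCR cells, and 15 and 17 in siPIAS1 cells. It was 0 and 5 with siPIAS1 alone and 5 and 20 with siPIAS1 under testosterone. All members except MRPL42P5 were above background on every array, and each group has 3 arrays.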
